A study of Mus musculus with 18 samples.

Results

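Induced cardiomyocyte-like cells (iCMs), which are fibroblasts whose reprogramming succeeded, were compared at 4 weeks with neonatal cardiac fibroblasts across the genes of an array. The 4-week iCMs were the GFP+ cells of the culture, and 3 arrays of them were set against 3 arrays of fibroblasts, which is 6 of the 18 arrays in the series. The arrays were chosen by their labels alone. The other arrays, 3 in each group, held iCMs at 2 weeks, GFP- cells whose reprogramming had failed at 2 and at 4 weeks, and neonatal cardiomyocytes. All cells came from mice of the CD1 strain, an outbred stock, and the neonatal groups received no treatment that the labels record. The labels name neither the factors that were introduced nor the promoter that drives GFP. In the field GFP is commonly placed under the Myh6 promoter, and if that was so here, a rise of Myh6 is not independent of the sort. RNA was hybridised to Affymetrix mouse Gene 1.0 ST arrays, and the values are log2 intensities, on which a difference of 1 is a 2-fold change.

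A heart muscle cell is built around the sarcomere, in which thin actin filaments carrying troponin slide along thick myosin filaments between Z-discs. Contraction is started by calcium that the ryanodine receptor releases from the sarcoplasmic reticulum and is ended by a pump that returns it, and mitochondria that burn fatty acids supply most of the energy. Fibroblasts of the heart instead secrete and turn over collagen and other matrix, and they divide readily in culture. Direct reprogramming forces cardiac transcription factors into such fibroblasts, which is known to switch on parts of the heart muscle programme without a pluripotent stage.

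Array medians of the 6 arrays lay between 7.33 and 7.43 log2, and arrays within a group correlated at 0.991 to 0.996 across genes over all 18 arrays. The 25th percentile of each array over its probe sets was taken, and the lowest of the 18, 6.16 log2, served as a background level. A group mean below it is called not above background, and a fold against such a mean is given as a lower bound ("at least"). The level is a low one. A list of 6 factors that specify skeletal muscle had fibroblast array means of 6.76 to 6.78 log2, and only 1 of them was not above background in both groups. Folds against fibroblast values near that level are given as they are, and they may be understated too. The highest value of each of the 6 arrays was 13.82 to 13.86 log2, so differences near that level may be understated. The labelled cell types were compared by marker genes, which were chosen with earlier results of these data known. The comparison is thus a description and not an independent check of identity. Of 10 cardiomyocyte markers, 10 were higher in the 4-week iCMs, and of 10 fibroblast markers 9 were lower and 1, Thy1, was higher. The cardiomyocyte markers include Myh6 and leave out Myl2 and Myl3, which did not rise. The fibroblast arrays also carried markers of macrophages: the mean over 24 of them was 9.05 to 9.18 log2 in the arrays of 4-week iCMs, against 11.35 to 11.56 in those of fibroblasts. The cardiomyocyte arrays held the matrix genes Dpt and Postn at means of 11.79 and 12.16 log2, against 11.86 and 11.51 in fibroblasts.

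The 4-week iCMs differed from fibroblasts in 5878 of 19912 genes (29.5%) at an adjusted p under 0.05 in limma. Of these, 2852 were higher (14.3%) and 3026 lower (15.2%), and these shares are the background for every gene group that follows. Large changes were more often falls: 307 genes (1.54%) were lower by at least 4-fold and 176 (0.884%) higher by that much. The 3 arrays of one group lay wholly above the 3 of the other in 4401 genes for the iCMs (22.1%) and in 4232 for the fibroblasts (21.3%). The median difference over all genes was 0.02 log2. The 15 largest rises were Actc1, Myl7, Smpx, Enpep, Ppp1r3c, Dsp, Myl4, Myh6, Ttn, Csrp3, Ryr2, Casq2, Pgam2, Myoz2 and Anxa8, most of them genes of the heart muscle cell. The 15 largest falls mixed matrix genes (Dpt, Postn, Mmp3, Mmp16) with genes of macrophages and other immune cells (Clec4e, Ccl12, Ifitm6, Clec5a, Cd52, Fcrls) and with Plac8, Rasgrp3, Hpgd, Emb and Hsd11b1.

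**Figure D1:**
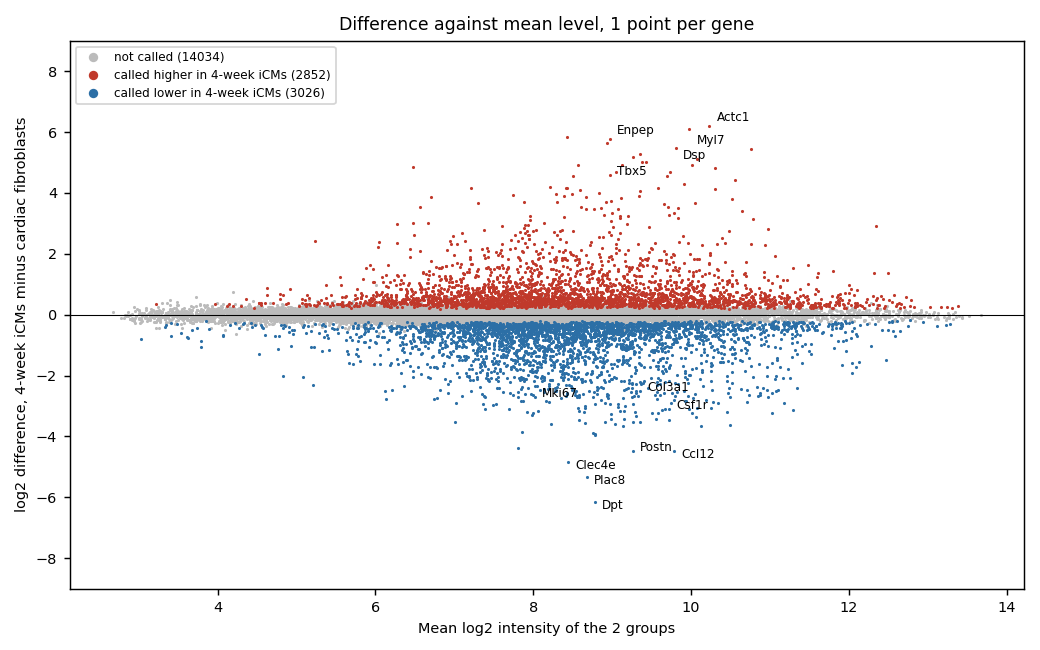
Each point is a gene, with the mean log2 intensity of the 2 groups on the horizontal axis and the log2 difference, 4-week iCMs minus fibroblasts, on the vertical axis. Red points are the 2852 genes called higher and blue points the 3026 called lower. Actc1 and Myl7 stand at the top and Dpt and Plac8 at the bottom.

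Transcription factors were examined first, since Gata4, Mef2c and Tbx5 are the factors most used for this conversion in the field. All 3 were higher in the 4-week iCMs. Tbx5, a T-box factor that the heart field uses, read 11.07, 11.32 and 11.40 log2 in 4-week iCMs against 6.58, 6.70 and 6.75 in fibroblasts, which is 24.1-fold (adjusted p = 6.85e-17). Gata4, a zinc finger factor, was 3.92-fold higher (10.78 ± 0.12 against 8.80 ± 0.34 log2, mean ± SD, n = 3 arrays a group here and throughout). Mef2c, a MADS-box factor of muscle, was 2.19-fold higher (11.78 ± 0.15 against 10.65 ± 0.17). For each the arrays of the groups did not overlap. A probe set cannot tell a transcript of the cell's own gene from one of an introduced copy that holds the probed bases. All 3 were also higher in 4-week iCMs than in neonatal cardiomyocytes, by 1.95, 1.00 and 1.54 log2 for Tbx5, Gata4 and Mef2c. None of the 3 was called different from the 2-week iCMs.

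Of 19 other cardiac transcription regulators, 11 were higher and 2 lower, with a median difference of 0.44 log2. Esrrg, an orphan nuclear receptor that drives genes of oxidative metabolism, rose 4.47-fold, with 8.84, 8.95 and 8.56 log2 in iCMs against 6.68, 6.32 and 6.87 in fibroblasts. Prox1, a homeobox factor, rose 2.96-fold, the stress-responsive cofactor Ankrd1 2.58-fold and the T-box factor Tbx20 2.22-fold. Tbx18, which marks the epicardium and the sinus node, and Tbx3, a repressor of the conduction system, rose by 1.09 ± 0.15 and 1.00 ± 0.14 log2 (± SE). Smyd1, a muscle methyltransferase, and Srf, the factor that binds CArG boxes, rose by 0.60 ± 0.11 and 0.54 ± 0.11. Mef2a (-0.35 ± 0.10) and Zfpm2, a cofactor of Gata4 (-0.54 ± 0.15), were lower. Nkx2-5, Hand2, Irx4, Gata6, Hand1 and Hopx did not pass the test, with differences between -0.06 for Hand1 and 0.44 for Hopx. The 6 myogenic regulatory factors and Pax genes, which specify skeletal muscle (Myod1, Myf5, Myog, Myf6, Pax3 and Pax7), lay between -0.12 and 0.10 log2, and limma called 0 of them (0 at an unadjusted p under 0.05).

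Most genes of the sarcomere were higher in the 4-week iCMs. Of 16 thin filament genes 14 were higher and 0 lower, with a median difference of 1.41 log2. Of 20 genes of the thick filament, titin and the M-band 14 were higher and 1 lower (median 1.33), and of 21 Z-disc and costamere genes 18 were higher and 0 lower (median 1.43). Not every isoform took part.

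Actc1, the cardiac alpha-actin of the thin filament, read 13.30, 13.40 and 13.29 log2 in 4-week iCMs against 6.81, 7.34 and 7.26 in fibroblasts, and 13.61 ± 0.06 in cardiomyocytes. Tnni3, the cardiac troponin I that blocks myosin until calcium arrives, read 12.28, 12.47 and 12.35 in iCMs against 8.30, 8.21 and 8.25, a rise of 17.3-fold (adjusted p = 1.19e-14). Tnnc1, the calcium-binding troponin C of heart and slow muscle, rose 21.6-fold, with 12.77, 12.81 and 12.72 against 8.31, 8.54 and 8.17. In all 3 genes each iCM array was far above each fibroblast array. Tnnt2, cardiac troponin T, rose 7.49-fold to 13.79 ± 0.03, against a fibroblast level of 10.89 ± 0.52 that was well above background, and its iCM level lay at the top of the scale. Lmod2, which nucleates actin at the filament's pointed end, rose by 3.99 ± 0.16 log2, and Tmod1, which caps that end, by 1.51 ± 0.12. Nebl, a nebulin-like ruler of the thin filament, rose by 2.76 ± 0.11 by the probe set used, whereas a second probe set of the gene gave 0.53. Tpm1 and Tpm2, the tropomyosins, rose by 0.81 ± 0.10 and 0.40 ± 0.13, and both were already high in fibroblasts (11.70 ± 0.19 and 10.61 ± 0.18). Tnni1, the slow skeletal troponin I that the newborn heart still makes, rose by 0.72 ± 0.13, and its iCM level of 7.66 ± 0.13 compares with 11.51 ± 0.23 in neonatal cardiomyocytes.

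Myosin and its partners split by chamber and by isoform. Myh6, the alpha myosin heavy chain of adult mouse heart and of atria, read 12.09, 12.02 and 11.89 log2 in iCMs against 6.95, 6.59 and 6.58 in fibroblasts (39.2-fold, adjusted p = 1.3e-13). Myh7, the beta chain that the fetal ventricle uses, read 7.59, 7.63 and 7.41 against 6.58, 6.63 and 6.64, a rise of 1.9-fold, and stood 19.9-fold below its level in cardiomyocytes. The light chains differed between chambers. Myl7, the regulatory light chain of atria, read 12.98, 13.09 and 13.00 against 7.05, 6.95 and 6.80 (68-fold), and Myl4, the essential light chain of atria and fetal heart, 13.40, 13.55 and 13.51 against 8.63, 8.0 and 7.49 (43.6-fold). Neither was called different from cardiomyocytes, whose levels were 12.95 ± 0.10 for Myl7 and 13.01 ± 0.07 for Myl4. Their ventricular counterparts did not rise: Myl2 read 7.04, 7.03 and 7.09 in iCMs against 7.47, 7.36 and 7.30 in fibroblasts and was slightly lower (-0.33 ± 0.08, adjusted p = 0.00373), and Myl3 read 7.19, 7.10 and 7.12 against 7.04, 7.03 and 6.83 and was not called. Cardiomyocyte arrays held Myl2 at 13.70 ± 0.02 and Myl3 at 13.30 ± 0.08.

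Titin (Ttn), the spring that spans from Z-disc to M-band, rose 36.2-fold, with 11.91, 12.01 and 11.64 log2 in iCMs against 6.58, 6.83 and 6.63 in fibroblasts. The M-band proteins Myom2 and Myom1, which cross-link myosin filaments, rose 17.1-fold and 11.7-fold, while Myom3 did not pass the test (0.18). Mybpc3, the cardiac myosin-binding protein C, rose 4.88-fold. Smpx, a small muscle protein, was at least 36.3-fold higher, its fibroblast mean being not above background. At the Z-disc, Csrp3, a LIM protein thought to sense stretch, read 12.56, 12.67 and 12.66 against 7.68, 7.30 and 7.59 (34.4-fold). Actn2, the alpha-actinin that anchors thin filaments, read 10.06, 10.12 and 9.78 against 6.82, 6.71 and 6.85 (9.16-fold), below the 12.13 ± 0.15 of cardiomyocytes. Myoz2, which ties calcineurin to the Z-disc, was at least 28.8-fold higher, and Xirp2, a repeat protein of actin filaments, at least 4.3-fold. Desmin (Des), the intermediate filament of muscle, rose 6.12-fold and the Z-disc protein Ldb3 4.96-fold. The 3 members without a call were Sgca (0.14), Fhl2 (0.12) and Myot, whose mean was not above background in either group.

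The promoter of Actc1 is shown because it holds the best known element of sarcomere genes, the CArG box that Srf binds, and the promoter of Nppa because it holds a GATA site of the kind that Gata4 binds. Both are the 300 bases from 250 before to 50 after the annotated start, from RefSeq on GRCm38.p6, written 5′ to 3′ on the gene's strand, with every match to the 5 motifs searched in capitals.
Actc1, chr2:114052826-114053125, minus strand: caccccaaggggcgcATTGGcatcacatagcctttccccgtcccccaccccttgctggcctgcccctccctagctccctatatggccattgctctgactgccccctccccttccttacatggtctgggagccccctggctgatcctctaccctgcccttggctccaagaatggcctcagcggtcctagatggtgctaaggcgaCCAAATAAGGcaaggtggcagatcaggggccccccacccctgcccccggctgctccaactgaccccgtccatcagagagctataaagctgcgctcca
Nppa, chr4:148000472-148000771, plus strand: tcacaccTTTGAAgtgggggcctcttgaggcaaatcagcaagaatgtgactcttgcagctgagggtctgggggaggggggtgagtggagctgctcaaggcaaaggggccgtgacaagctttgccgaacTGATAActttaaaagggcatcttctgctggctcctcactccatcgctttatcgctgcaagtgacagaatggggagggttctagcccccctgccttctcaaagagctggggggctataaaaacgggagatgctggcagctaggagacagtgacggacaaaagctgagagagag
The motifs were the CArG box, the MEF2 site, the GATA site (as AGATAA or its variant AGATAG, and as TGATAA or its variant TGATAG), the CHR element TTTGAA and the CCAAT box, each searched on both strands. In Actc1 a CArG box lay from 47 to 38 bases before the start and a CCAAT box on the opposite strand from 235 to 231 bases before it. Nppa held a GATA site that began 122 bases before the start and a CHR element that began 243 bases before it, and none of these matches overlapped another. A CArG box stood in 10 of the 66 promoters found for the 3 sarcomere lists (15.2%), which cover 47 of their 57 genes, against 1.41% of the 19163 promoters of all tested genes. A MEF2 site stood in 10 of the 66 (15.2%) against 2.5% of all, and a GATA site in 27 (40.9%) against 24.5%. The 165 promoters of genes higher by at least 4-fold held a CArG box in 4.24%, a MEF2 site in 9.7% and a GATA site in 30.3%. For the 285 of genes lower by at least 4-fold these were 1.4%, 2.11% and 30.9%, so the GATA site was as frequent among falls as among rises. These are shares of windows that hold the letters, and they say nothing of binding.

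**Figure D2:**
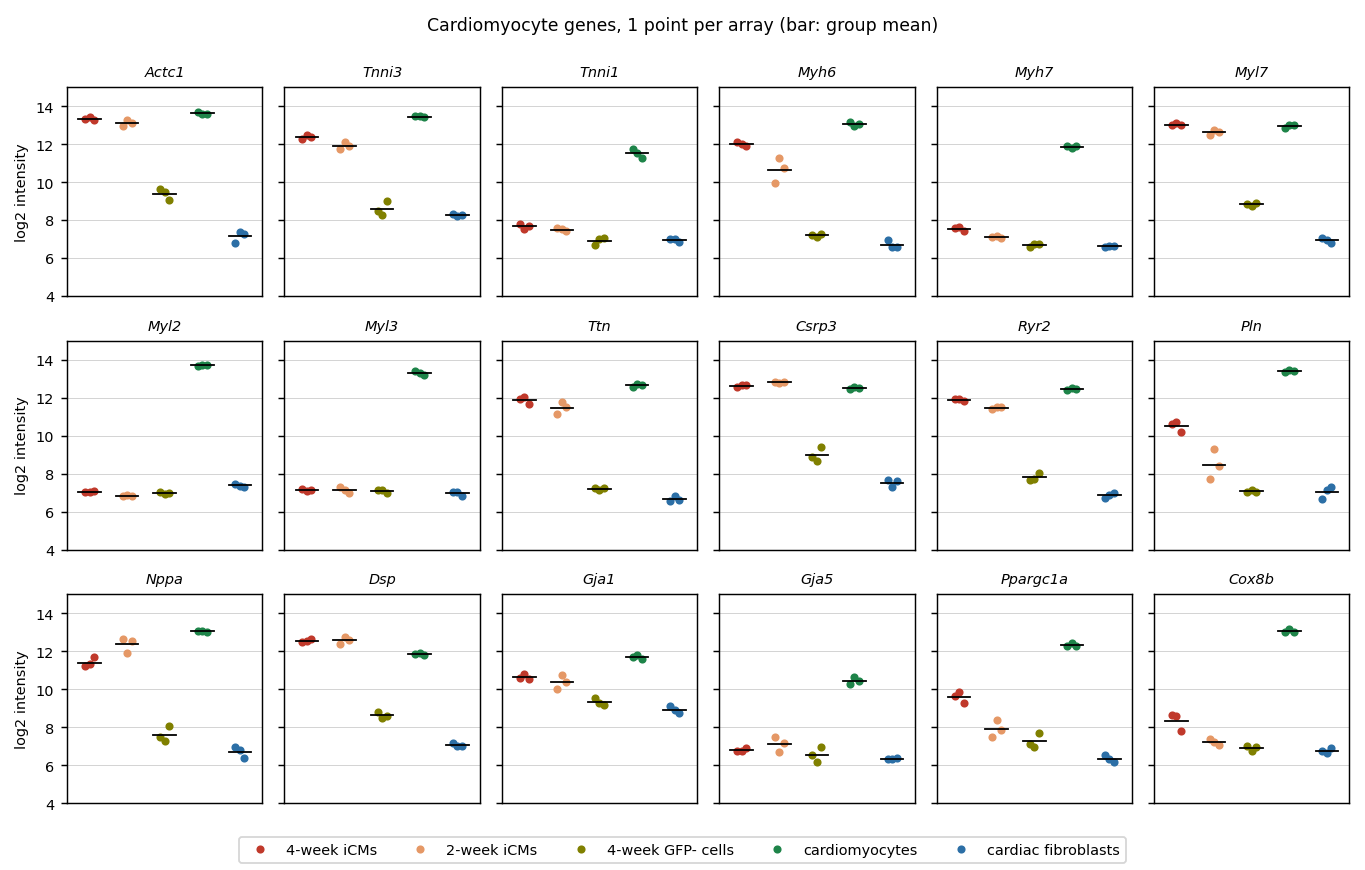
Each panel is a gene and each point an array, with log2 intensity on the vertical axis, a bar at the group mean, and groups from left to right in the order of the legend. Actc1, Myl7, Csrp3 and Dsp sit near the cardiomyocyte level in 4-week iCMs, Myl2 and Myl3 sit near the fibroblast level, and Pln, Ppargc1a and Cox8b lie between.

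Cells of the heart are joined at the intercalated disc, where desmosomes, adherens junctions and gap junctions meet. Of 14 such genes 12 were higher and 0 lower (median 1.21 log2). Dsp, the desmoplakin that links desmosomes to desmin, read 12.48, 12.54 and 12.63 in iCMs against 7.16, 7.02 and 7.0 in fibroblasts (44.8-fold, adjusted p = 9.48e-18) and stood above its level in cardiomyocytes by 0.71 ± 0.10 log2. Plakophilin 2 (Pkp2) rose 8.45-fold, plakoglobin (Jup) 4.1-fold and the catenin Ctnna3 at least 4.09-fold. Gja1, the main connexin of working ventricular muscle, read 10.58, 10.81 and 10.52 against 9.09, 8.89 and 8.73 (3.32-fold). N-cadherin (Cdh2) rose 2.47-fold. Gja5, a connexin of atria and conduction tissue, differed by 0.45 log2 without a call, although it was called under at least 1 other setting, and stood 12.7-fold below cardiomyocytes.

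Calcium handling by the sarcoplasmic reticulum rose broadly: of 16 genes 13 were higher and 2 lower, with a median difference of 1.88 log2. Ryr2, the cardiac release channel, read 11.91, 11.91 and 11.84 in iCMs against 6.73, 6.89 and 6.96 in fibroblasts (32.6-fold, adjusted p = 1.77e-17). Casq2, the calcium store protein beside it, read 11.86, 12.03 and 11.93 against 7.01, 6.87 and 6.86 (32.5-fold). Each iCM array of both genes lay above each fibroblast array. Pln, phospholamban, which restrains the calcium pump, read 10.61, 10.72 and 10.20 against 6.67, 7.14 and 7.28 (11.2-fold), and sarcolipin (Sln), its atrial relative, 10.97, 10.95 and 10.58 against 7.18, 7.91 and 7.66 (9.52-fold). The pump itself, Atp2a2, rose 2.57-fold, with 13.00 ± 0.02 in iCMs against 11.64 ± 0.01 in fibroblasts. Junctophilin 1 (Jph1), which holds the reticulum to the surface membrane, rose by 4.05 ± 0.29 log2 by the probe set used and by 2.10 by another. Triadin (Trdn), a partner of the release channel, rose by 3.15 ± 0.14 by the probe set used, and its 19 probe sets ran from 0.28 to 5.67. The members that fell were Fkbp1b, which stabilises the release channel (-1.04 ± 0.09, adjusted p = 7.34e-09), and Asph (-0.35 ± 0.10).

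Surface channels moved less. Of 11 calcium, sodium and pacemaker channel genes 5 were higher and 1 lower (median 0.11 log2), and of 15 potassium channel genes 8 were higher and 1 lower (median 0.39). The sodium-calcium exchanger Slc8a1 rose 3.12-fold and Cacna1c, the L-type calcium channel of the ventricle, 1.88-fold. Hcn4, the pacemaker channel, rose by 0.50 ± 0.10 log2, while Cacna1d, the L-type channel of the sinus node, fell by 1.03 ± 0.12. Kcnj5 and Kcnj3, which together form the acetylcholine-gated potassium channel of atria, rose 7.14-fold and 3.63-fold. Kcnj5 read 9.16, 9.57 and 9.20 in iCMs against 6.45, 6.46 and 6.50 in fibroblasts, and Kcnj3 8.60, 8.67 and 7.69 against 6.54, 6.55 and 6.30. Kcnj2, the inward rectifier that holds the ventricular resting potential, went the other way, with 6.85, 6.75 and 6.80 in iCMs against 8.28, 8.38 and 8.30 in fibroblasts (-1.52 ± 0.13, adjusted p = 8.87e-09). Its arrays did not overlap either.

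Chamber genes were read as 2 lists. Of 10 natriuretic and other atrial-enriched genes, which include Nppb and share Myl7, Myl4, Sln, Kcnj3 and Gja5 with the lists already described, 7 were higher and 0 lower (median 2.30 log2). Of 7 ventricular-enriched genes 2 were higher and 2 lower (median 0.06). The lists were not tested against each other. Nppa, the atrial natriuretic peptide, whose promoter is printed above, read 11.21, 11.30 and 11.67 in iCMs against 6.93, 6.77 and 6.39 in fibroblasts (26-fold, adjusted p = 7.01e-13). Nppb, the natriuretic peptide of stressed ventricle, read 9.77, 9.92 and 9.94 against 7.16, 7.06 and 7.21 (6.66-fold). Hey2, a repressor of atrial genes in ventricle, was at least 1.21-fold higher against a fibroblast mean not above background, and Irx4, a ventricular homeobox factor, differed by 0.01 without a call. Bmp10, an atrial growth factor, was not above background in either group.

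Genes of oxidative metabolism were mostly higher. Of 20 genes of fatty acid oxidation and its regulators 15 were higher and 0 lower (median 0.47 log2), and of 26 respiratory chain and ATP synthase genes 24 were higher and 0 lower (median 0.41). Ppargc1a, the coactivator that drives mitochondrial biogenesis, read 9.64, 9.85 and 9.24 in iCMs against 6.53, 6.33 and 6.15 in fibroblasts (9.47-fold), and a second probe set gave a rise of 1.92 log2. Pdk4, the kinase that turns pyruvate away from oxidation, read 10.37, 10.55 and 10.31 against 6.92, 7.06 and 6.82 (11.2-fold). The oxidation enzymes Acaa2, Acadl and Acadm rose 6.99-fold, 3.86-fold and 1.96-fold. Among respiratory subunits the largest rises were in the muscle isoforms of cytochrome oxidase, Cox8b (2.98-fold), Cox6a2 (2.23-fold) and Cox7a1 (2.15-fold), while general subunits such as Cox4i1 (0.35 ± 0.07 log2) and Atp5b (0.42 ± 0.07) gained little but were called. The complex II subunits Sdhb (0.10) and Sdhd (0.18) did not pass the test.

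Sugar and fat handling changed by isoform. Of 20 genes of muscle glycolysis, glycogen and creatine kinase 12 were higher and 1 lower. Pgam2, the muscle phosphoglycerate mutase, read 12.43, 12.63 and 12.38 log2 in iCMs against 7.64, 7.50 and 7.50 in fibroblasts (30.6-fold), while its general isoform Pgam1 did not differ beyond its error (0.00 ± 0.10). Eno3, the muscle enolase, rose 12.8-fold. Ldhb, the lactate dehydrogenase subunit of heart, rose 7.38-fold and Ldha, that of glycolytic tissue, fell by 0.33 ± 0.10. Ppp1r3c and Ppp1r3a, which bring a phosphatase to glycogen, were at least 47-fold and at least 6.03-fold higher, and myoglobin (Mb) rose 2.82-fold. The muscle creatine kinase Ckm did not pass the test (-0.06). In lipid uptake and storage 4 of 12 genes were higher and 3 lower, and the fatty acid binding proteins moved both ways. Fabp3, the heart form, rose 9.56-fold, while Fabp4 and Fabp5, the forms of fat cells, macrophages and skin, fell by 1.22 ± 0.11 and 0.90 ± 0.13 log2. The part of macrophages in these falls was not tested.

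Skeletal muscle isoforms were raised in part: of 20 genes 10 were higher and 0 lower, with a median of 0.25 log2. Tnnt3, the fast skeletal troponin T, accounted for the largest of these, with 12.37, 12.34 and 12.56 in iCMs against 8.76, 8.56 and 8.53 in fibroblasts (14-fold, adjusted p = 3.61e-15). The iCM level also stood 10.9-fold above that of cardiomyocytes. Myl1, the fast light chain, rose 3.88-fold and Mylpf, its regulatory partner, 1.95-fold. The fast troponins Tnni2 (-0.20) and Tnnc2 (0.27) and the skeletal release channel Ryr1 (0.12) did not pass the test.

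Genes of the fibroblast programme were lower. Of 19 collagen chains 12 were lower and 3 higher (median -0.34 log2), of 24 proteoglycans and matrix glycoproteins 20 were lower and 1 higher (median -1.59), and of 18 genes of fibroblast identity and activation 13 were lower and 1 higher (median -0.89). Col3a1, a fibrillar collagen, read 8.29, 7.91 and 8.10 in iCMs against 10.69, 10.60 and 10.51 in fibroblasts (5.67-fold lower, adjusted p = 1.25e-13). Col1a2 and Col1a1, the chains of collagen I, fell 5.49-fold and 2.96-fold, and Col8a1, a short-chain collagen, 7.12-fold. All of these iCM arrays lay below all fibroblast arrays. Basement membrane chains moved little, with Col4a1 at -0.34 ± 0.09 log2, and Col4a3 (0.40 ± 0.08) and Col4a4 (0.47 ± 0.09) slightly higher. Col12a1, a fibril-associated collagen, rose 2.11-fold.

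Dpt, dermatopontin, which binds decorin and helps form collagen fibrils, showed the largest fall, with 5.72, 5.26 and 6.14 log2 in iCMs against 12.08, 11.86 and 11.63 in fibroblasts. That is at least 51.9-fold lower (adjusted p = 3.69e-15), as the iCM mean was not above background. Postn, periostin, a matrix protein of activated fibroblasts, read 6.99, 7.43 and 6.61 against 11.65, 11.43 and 11.45 (22.6-fold lower). Asporin (Aspn) was at least 6.15-fold lower, and Mfap5, a microfibril protein, fell 8.02-fold. Fibronectin (Fn1) fell 3.77-fold and the proteoglycans Prelp, Lum and Bgn 6-fold, 4.26-fold and 4.25-fold. Decorin (Dcn) fell 1.7-fold, with 11.65 ± 0.11 in iCMs against 12.41 ± 0.19 in fibroblasts, and Sparc did not pass the test (-0.10). The exception in this group was Efemp1, fibulin 3, which read 11.34, 11.41 and 11.62 in iCMs against 8.25, 8.11 and 8.0 in fibroblasts (10.1-fold higher, adjusted p = 2.34e-12).

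Among identity genes, Pdgfra, the growth factor receptor that marks cardiac fibroblasts, read 7.64, 7.48 and 7.43 log2 in iCMs against 10.94, 10.67 and 10.47 in fibroblasts (9.04-fold lower). Tcf21, a factor that the fibroblast lineage needs, read 7.51, 7.61 and 7.40 against 10.50, 9.97 and 9.87 (6.08-fold lower). Lox, which cross-links collagen, fell 7.72-fold and Pdgfrb 5.75-fold. Thy1, a surface antigen used to sort fibroblasts, was the 1 member called higher, with 10.44, 10.34 and 10.92 in iCMs against 9.71, 9.46 and 9.22 in fibroblasts (1.10 ± 0.21). The collagen chaperone Serpinh1 (-0.06) did not pass the test. Vimentin (Vim) differed by 0.15 without a call and was called under at least 1 other setting. Of 20 matrix proteases and inhibitors 14 were lower and 0 higher. Mmp3, stromelysin, read 7.10, 6.83 and 6.47 in iCMs against 10.85, 10.82 and 10.44 in fibroblasts (14.9-fold lower), the aggrecanase Adamts5 fell 8.12-fold, the gelatinase Mmp2 5.32-fold and the inhibitor Timp1 3.61-fold.

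The growth factor pathways that govern matrix split between ligands. Of 29 TGF-beta and BMP genes 10 were higher and 8 lower (median 0.10 log2). Tgfb2 and Tgfb3 rose 3.96-fold and 3.5-fold, while Tgfb1, the form most tied to fibrosis, fell 2.22-fold. Tgfb2 read 10.71, 10.70 and 10.61 in iCMs against 8.94, 8.74 and 8.38 in fibroblasts, and Tgfb1 8.03, 7.96 and 7.73 against 8.93, 9.16 and 9.08. Bmp2 rose 3.35-fold and Bmp4 fell 2.42-fold. The receptor Tgfbr2 fell 2.27-fold, the target Tgfbi 4.67-fold and Inhba, the activin subunit, 2.82-fold. Of 23 Wnt genes 5 were higher and 4 lower (median 0.00 log2), against 14.3% higher and 15.2% lower over all genes, so the list as a whole stood out little. The Wnt effector Lef1 rose 2.94-fold, Axin2, a target and inhibitor of the pathway, 1.62-fold, and the secreted inhibitor Wif1 2.44-fold, while the secreted inhibitor Sfrp1 fell 3.11-fold.

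Macrophage genes fell as a block. Of 24 macrophage core genes 24 were lower and 0 higher, with differences from -3.33 to -0.86 log2 and a median of -2.46. Csf1r, the receptor that macrophages need to survive, read 8.23, 8.19 and 8.09 in iCMs against 11.12, 11.24 and 11.44 in fibroblasts (8.58-fold lower, adjusted p = 2.72e-13). Adgre1, the F4/80 antigen, read 9.13, 9.23 and 10.04 against 11.79, 11.94 and 12.09 (5.56-fold lower). Itgam, the CD11b integrin, fell 10.1-fold and Cd14, the co-receptor for endotoxin, 8.57-fold, while Lyz2, a lysozyme, fell 2.78-fold and stayed at 11.73 ± 0.08 in iCMs. No gene of the list had an iCM mean under the background level. The iCM samples held cells selected as GFP+, a step the fibroblast labels do not record, and the part of that selection in these falls was not tested. Fewer macrophages in a sample and less RNA of these genes per cell cannot be told apart. The same list had array means of 6.64 to 6.82 log2 in neonatal cardiomyocytes and of 11.74 to 11.83 in 4-week GFP- cells.

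Immune signalling genes fell beside the macrophage markers, and the part of the markers in these falls was not tested. Of 27 chemokines and receptors 18 were lower and 0 higher (median -1.59 log2). Ccl12, a ligand of the monocyte receptor Ccr2, read 7.48, 7.54 and 7.64 in iCMs against 12.05, 11.96 and 12.04 in fibroblasts (22.1-fold lower). Ccl8, Ccl3 and the fractalkine receptor Cx3cr1 fell 9.49-fold, 9.1-fold and 8.49-fold. Cxcl12, which stromal cells make as well, fell 4.36-fold. Of 15 Toll-like receptors and pattern recognition genes 13 were lower and 0 higher (median -1.75). Clec4e, a lectin that senses mycobacterial lipids, was at least 24.9-fold lower, with 5.97, 5.78 and 6.35 in iCMs against 10.63, 10.93 and 11.02. Tlr7, Tlr13 and Tlr8, the endosomal sensors of RNA, fell 10.9-fold, 9.44-fold and 6.52-fold, whereas Tlr4 did not pass the test (-0.24).

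Cytokines did not all follow. Of 20 inflammatory cytokine and acute phase genes 8 were lower and 4 higher, with a median of -0.06 log2. Il6 was at least 4.89-fold lower, with an iCM mean not above background, and Tnf and Il1b fell 6.06-fold and 4.91-fold. Il10, an anti-inflammatory cytokine, rose 3.13-fold, with 7.64, 7.94 and 8.16 in iCMs against 5.84, 6.29 and 6.66 in fibroblasts. The alarmin Il33 rose 2.78-fold and Lif, which acts through the receptor subunit gp130, 2.22-fold. Saa3, an acute phase protein, stayed high in both groups, at 11.94 ± 0.22 in iCMs and 11.83 ± 0.12 in fibroblasts, and was not called. Of 18 interferon response genes 7 were lower and 1 higher, led by Ifit3 (-1.35 ± 0.25), and Usp18, which dampens the response, rose by 1.27 ± 0.16. Of 6 genes of MHC class II presentation limma called 0 (2 at an unadjusted p under 0.05), with differences from -0.37 to 0.07.

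**Figure D3:**
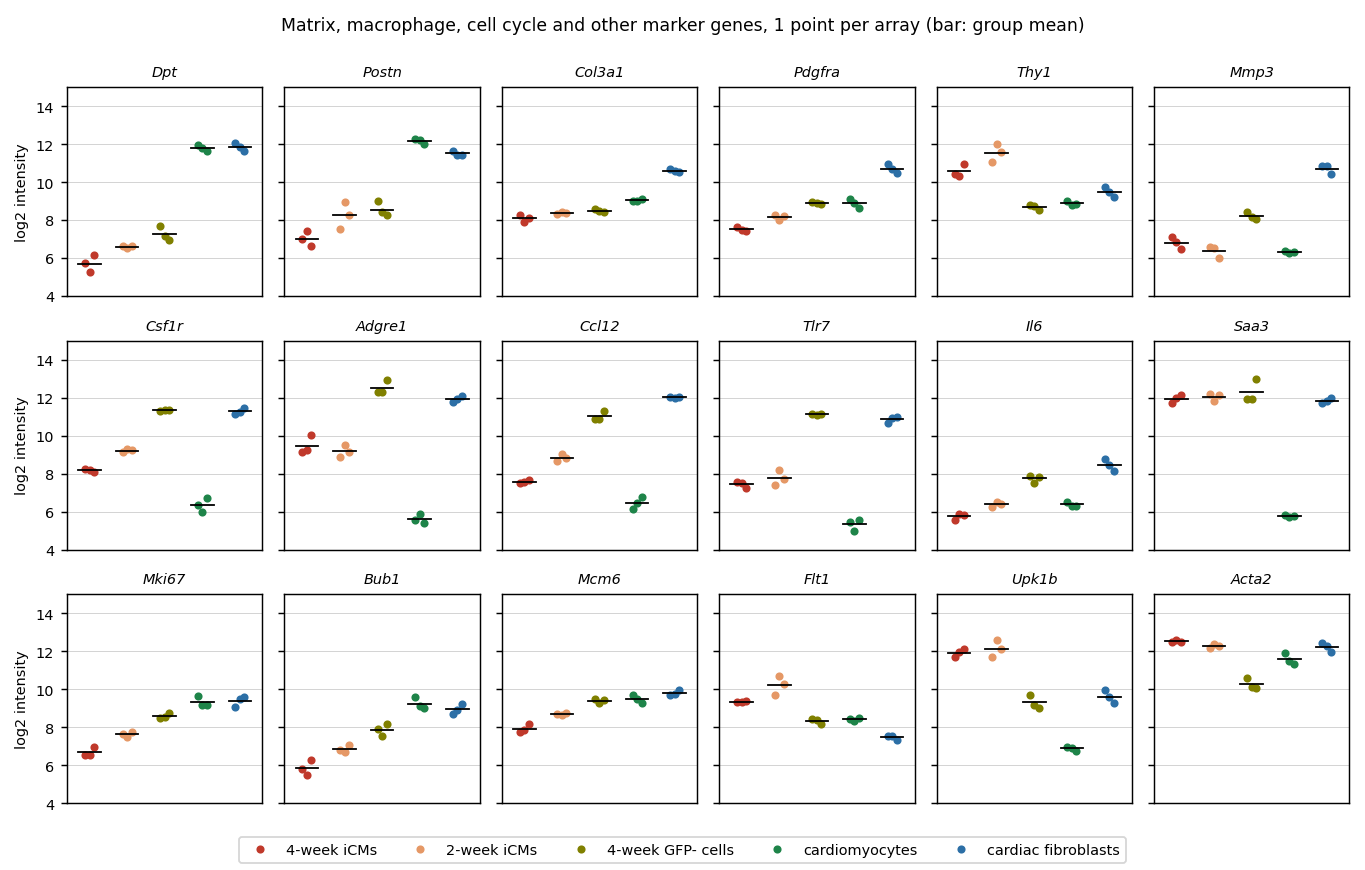
Panels as in the plot of cardiomyocyte genes, for matrix genes, macrophage and immune genes, cell cycle genes and markers of other cells, with log2 intensity on the vertical axis and a bar at each group mean. In 4-week iCMs the points of Dpt, Postn, Csf1r, Ccl12, Mki67 and Bub1 lie below those of fibroblasts, Thy1, Flt1 and Upk1b lie above them, and Saa3 and Acta2 overlap or lie close.

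Proliferation genes were lower almost without exception. Of 24 mitosis genes 23 were lower and 0 higher (median -1.87 log2), and of 25 DNA replication genes 23 were lower and 0 higher (median -0.73). Mki67, a protein of cycling cells, read 6.51, 6.54 and 6.97 in iCMs against 9.04, 9.46 and 9.60 in fibroblasts (6.48-fold lower, adjusted p = 3.32e-11). Top2a, the topoisomerase of dividing cells, fell 7.68-fold by the probe set used and by 2.26 log2, against 2.94 for that one, by another. Cenpe, a kinetochore motor, fell 6.07-fold and Cdk1, the mitotic kinase, 5.48-fold. Bub1, a spindle checkpoint kinase, was at least 6.67-fold lower against an iCM mean not above background. Among replication genes Gins1, Rrm2 and Mcm6 fell 3.96-fold, 3.92-fold and 3.69-fold. Kif23 (-0.38), Cdt1 (-0.13) and Tk1 (0.14) did not pass the test.

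Ccnb2, a mitotic cyclin, read 8.31, 8.19 and 8.51 log2 in iCMs against 10.00, 10.27 and 10.46 in fibroblasts (3.74-fold lower). Its promoter is shown because it holds both of the elements known from cell cycle genes, the CCAAT box and the CHR element, again as 300 bases from 250 before to 50 after the start, from RefSeq on GRCm38.p6, with matches to the same 5 motifs in capitals.
Ccnb2, chr9:70421505-70421804, minus strand: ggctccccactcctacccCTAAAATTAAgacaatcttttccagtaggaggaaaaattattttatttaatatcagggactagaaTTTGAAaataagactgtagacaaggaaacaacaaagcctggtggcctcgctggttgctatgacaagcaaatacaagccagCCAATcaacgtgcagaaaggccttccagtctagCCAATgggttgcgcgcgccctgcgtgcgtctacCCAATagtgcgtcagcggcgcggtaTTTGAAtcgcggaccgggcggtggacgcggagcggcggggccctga
CCAAT boxes began 87, 54 and 21 bases before the start, and CHR elements 167 bases before it and 4 bases after it, with a MEF2 site from 232 to 223 bases before the start. A CHR element stood in 18 of the 22 promoters found for 20 of the 24 mitosis genes (81.8%), against 14.8% of all 19163 promoters. A CCAAT box stood in 18 of the 22 (81.8%) against 37.4%, and a CArG box in 0 of them. The 285 promoters of genes lower by at least 4-fold held a CHR element in 22.8%, and the 165 of genes higher by at least 4-fold in 15.8%.

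Brakes on the cell cycle moved both ways. Of 17 inhibitors and p53 targets 7 were higher and 6 lower. The p53 targets Fas, Trp53inp1 and Ccng1 rose by 1.06 ± 0.13, 1.01 ± 0.14 and 0.51 ± 0.09 log2. Btg2 and Sesn1 of the same list were also called, but their directions are not given here. The rises above therefore do not stand for all p53 targets. Cdkn1a, another member, was not analysed here. Cdkn2c fell by 1.51 ± 0.11 and Cdkn1b by 0.60 ± 0.10, both inhibitors of cyclin-dependent kinases, while Cdkn2a (0.25) and Cdkn2b (0.15) did not pass the test. Of 19 immediate early genes, which respond to cell handling, 8 were lower and 2 higher, with Egr2 at -1.01 ± 0.13 and Jun at -0.94 ± 0.12. Of 18 genes of the unfolded protein response 3 were lower and 1 higher, against 15.2% lower and 14.3% higher over all genes. The largest were Xbp1 (-0.55 ± 0.10) and Ddit3 (0.48 ± 0.10).

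Markers of other cell types were read for what else the sorted cells held. Mesothelial and epicardial markers split, with 6 of 17 higher and 7 lower (median -0.11 log2), and list means of 8.51 to 8.64 in iCM arrays against 8.30 to 8.75 in fibroblast arrays. Msln, mesothelin, read 10.02, 10.11 and 10.36 in iCMs against 7.88, 7.58 and 7.39 in fibroblasts (5.85-fold), and Upk1b, a uroplakin of the mesothelial surface, 11.70, 11.93 and 12.12 against 9.94, 9.60 and 9.28 (4.97-fold). Keratin 18 (Krt18) rose 2.92-fold, whereas Wt1 (0.20) did not pass the test and Aldh1a2, which makes retinoic acid in epicardium, fell 1.96-fold. Of 18 endothelial markers 3 were higher and 0 lower (median 0.07 log2), against 14.3% higher and 15.2% lower over all genes. The share called higher was thus near that of all genes. Flt1, a VEGF receptor, rose 3.67-fold, Emcn was at least 2.48-fold higher and Cdh5, the VE-cadherin, rose 1.67-fold. Tie1, Vwf, Kdr and Cldn5 gave no call. Of 16 smooth muscle and pericyte genes 6 were higher and 2 lower. Mcam rose 2.39-fold and Cnn1, calponin, fell 2.08-fold, and Acta2, smooth muscle actin, was high in both groups (12.51 ± 0.05 in iCMs and 12.21 ± 0.22 in fibroblasts) without a call.

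Of 17 markers of other leukocytes 1 was higher and 1 lower. The gene that rose was Mcpt4, a mast cell chymase, with 10.17, 10.54 and 10.19 log2 in iCMs against 6.27, 6.25 and 5.83 in fibroblasts (at least 16.9-fold), while the mast cell genes Kit (-0.06) and Cpa3 gave no call and Cpa3 was not above background in either group. Limma called 0 of 6 Schwann cell genes (0 at an unadjusted p under 0.05), 0 of 2 erythroid genes (0 at an unadjusted p under 0.05) and 0 of 8 pluripotency genes (0 at an unadjusted p under 0.05), the last with differences from -0.23 to 0.20, and of 10 progenitor and mesoderm genes 0 were higher and 2 lower (Pdgfra, given above, and Fgf10 at -1.03 ± 0.14). Isl1, a factor of cardiac progenitors, differed by 0.00. Of 13 neuronal genes 3 were higher and 2 lower, against 14.3% higher and 15.2% lower over all genes. The largest difference was in Bex1, of a family first described in brain. Bex1 read 8.30, 8.98 and 9.44 against 3.99, 4.13 and 4.06 and was at least 6.71-fold higher than a fibroblast mean below background.

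**Figure D4:**
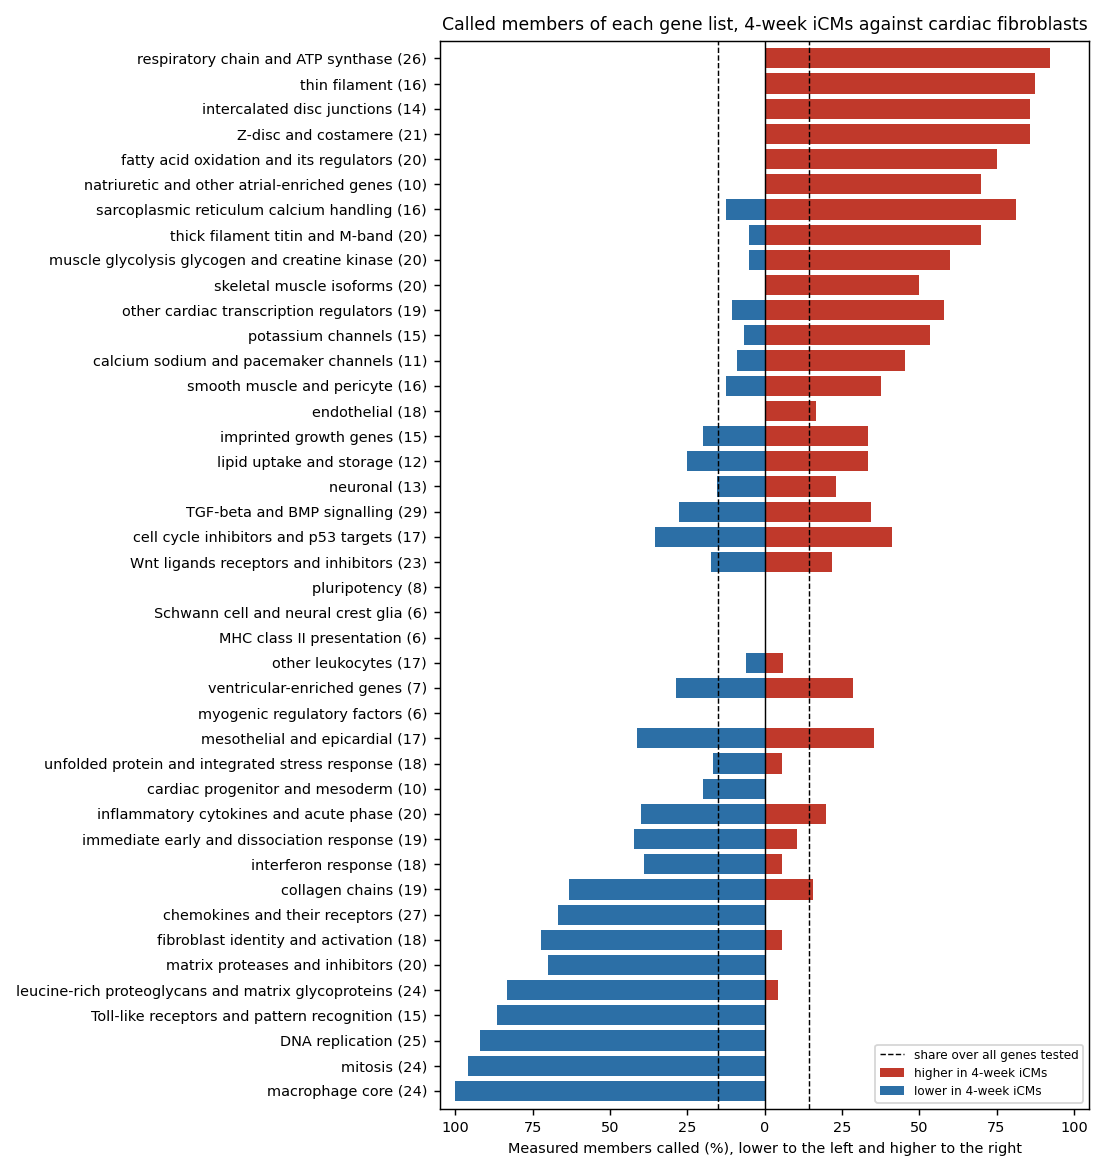
For each gene list with at least 6 measured members (number in brackets), the bar to the right gives the percentage of members called higher in 4-week iCMs than in fibroblasts and the bar to the left the percentage called lower. The dashed lines are the shares over all 19912 genes, 14.3% higher and 15.2% lower. Respiratory chain, thin filament, junction and Z-disc lists lie at the top, and macrophage, mitosis and replication lists at the bottom.

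Imprinted genes and non-coding RNAs were also read. Of 15 imprinted growth genes 5 were higher (3 when any 1 of the 6 arrays was left out) and 3 lower. Mest rose 5.61-fold, with 9.26, 9.45 and 10.04 log2 in iCMs against 6.93, 7.16 and 7.20 in fibroblasts, and Igf2r, the receptor that clears Igf2, rose 3.28-fold. Meg3, a long non-coding RNA of the maternal Dlk1-Dio3 locus, read 7.83, 7.26 and 7.38 against 9.37, 9.35 and 9.07 (3.42-fold lower), and Rian, the next non-coding RNA of that locus, was at least 3.75-fold lower, with 5.88, 5.28 and 5.58 against 8.76, 7.85 and 7.58. Dlk1 itself was not called (0.14). Over the 103 genes that the annotation lists between Dlk1 and Dio3, 47 were measured, and 28 of these were not above background in either group. Calls fell on 14 lower and 1 higher, but 9 of the 14 and the 1 higher (Mir494) are among the 28. The other 5 lower calls, each with at least 1 group mean above background, were Meg3, Rian, DQ267102, Mir127 and Mir370. The region was chosen after the values of Meg3 and Rian were seen, and both are among these 5. Over all genes 15.2% were called lower, and the median difference over the measured genes of the region was -0.11 log2. Against 4-week GFP- cells only 1 gene of the region, Meg3, was called (-0.49 ± 0.16 log2).

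Some probe sets cover microRNA hairpins. They measure RNA that holds the hairpin, such as the primary transcript, and not the mature microRNA. Of 291 hairpins measured 14 were called higher and 35 lower, and 141 were not above background in either group, among them 4 of the 14 and 17 of the 35. Both shares lie below the 14.3% higher and 15.2% lower over all genes, and the median difference of the hairpins was -0.03 log2. Mature sequences of 4 hairpins described here, chosen after their values were seen, are shown from RefSeq (GRCm38.p6), with the seed, bases 2 to 8, in capitals. The 5p arms that RefSeq also lists for miR-208a and miR-221 are not shown.
miR-208a-3p, chr14:54949072-54949093, minus strand: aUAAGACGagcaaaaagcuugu
miR-142a-5p, chr11:87756867-87756887, plus strand: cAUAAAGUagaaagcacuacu
miR-142a-3p, chr11:87756903-87756925, plus strand: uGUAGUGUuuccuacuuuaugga
miR-221-3p, chrX:19146307-19146329, minus strand: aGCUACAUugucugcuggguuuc
miR-222-3p, chrX:19146901-19146923, minus strand: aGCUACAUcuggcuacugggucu
The hairpin of miR-208a lies within the annotated span of Myh6, whose transcript it shares. Mir208a read 6.65, 6.95 and 6.61 log2 in iCMs against 5.28, 5.16 and 4.90 in fibroblasts, at least 1.49-fold higher (adjusted p = 4.19e-09), and its mean of 6.67 ± 0.16 in cardiomyocytes was close to that of iCMs. The other hairpins of heart muscle read here, Mir1a-1, Mir1a-2, Mir133a-1, Mir133a-2 and Mir499, showed no rise: all 5 were not above background in either group, with differences from -0.37 to 0.13 log2, and Mir1a-1 and Mir133a-2 were called lower at that level. In cardiomyocytes 1 of the 5, Mir133a-1, had a mean above background (6.31). Mir142, whose microRNAs are made in blood cells, read 7.04, 6.38 and 6.63 in iCMs against 8.01, 8.36 and 8.56 in fibroblasts (-1.63 ± 0.20, adjusted p = 2.16e-06). It fell beside the macrophage markers, and their part in it was not tested. Mir221 and Mir222, neighbours on the X chromosome whose 3p arms share the seed GCUACAU, fell by 1.02 ± 0.10 and 0.90 ± 0.17 log2.

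A set of genes in 4-week iCMs lay outside the range between fibroblasts and cardiomyocytes, being called in the same direction against both. The comparisons share the iCM arrays. The 8 that lay furthest above both were Anxa8, Tnnt3, Efemp1, Mcpt4, Scg2, Tspan8, Pvalb and Jam2. Anxa8, an annexin, read 11.51, 11.58 and 11.66 log2 in iCMs, against 6.24, 6.59 and 6.31 in cardiomyocytes and 6.77, 6.77 and 6.44 in fibroblasts. Scg2, a granin of secretory vesicles, read 11.94, 12.15 and 12.12 in iCMs against 6.74, 6.52 and 6.93 in cardiomyocytes and 7.76, 7.21 and 7.22 in fibroblasts. In both genes the 2 end points lay close together and far below the iCMs. Pvalb, the calcium buffer of fast muscle and some neurons, stood 13.4-fold above fibroblasts and 15.8-fold above cardiomyocytes. Jam2, a junctional adhesion molecule, stood 10.5-fold and 13.4-fold above them, and Tspan8, a tetraspanin, 12.3-fold and 29.4-fold. In 4-week GFP- cells Anxa8 averaged 8.87 ± 0.35 and Tspan8 10.25 ± 0.34, above fibroblasts as well in these arrays.

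The 8 that lay furthest below both were Dpt, Postn, Aspn, Mfap5, Bub1, Top2a, Knl1 and Ncapg, that is, 4 matrix genes and 4 genes of chromosome segregation. The cardiomyocyte arrays held fibroblast genes as well. The 10 fibroblast markers had array means of 9.37 to 9.65 log2 there, 8.41 to 8.455 in iCMs and 10.215 to 10.60 in fibroblasts. Whether other cells in the cardiomyocyte samples carried these matrix genes was not tested. Aspn was at least 41.2-fold lower than in cardiomyocytes, and Postn 35.5-fold. Knl1, a kinetochore scaffold, was at least 6.39-fold lower than in fibroblasts and at least 8.1-fold lower than in cardiomyocytes. Ncapg, a condensin subunit, fell 7.18-fold and 7.49-fold. Neonatal cardiomyocytes still divide, and their mitosis genes as a list had array means of 9.01 to 9.45 log2, against 6.93 to 7.27 in 4-week iCMs.

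**Figure D5:**
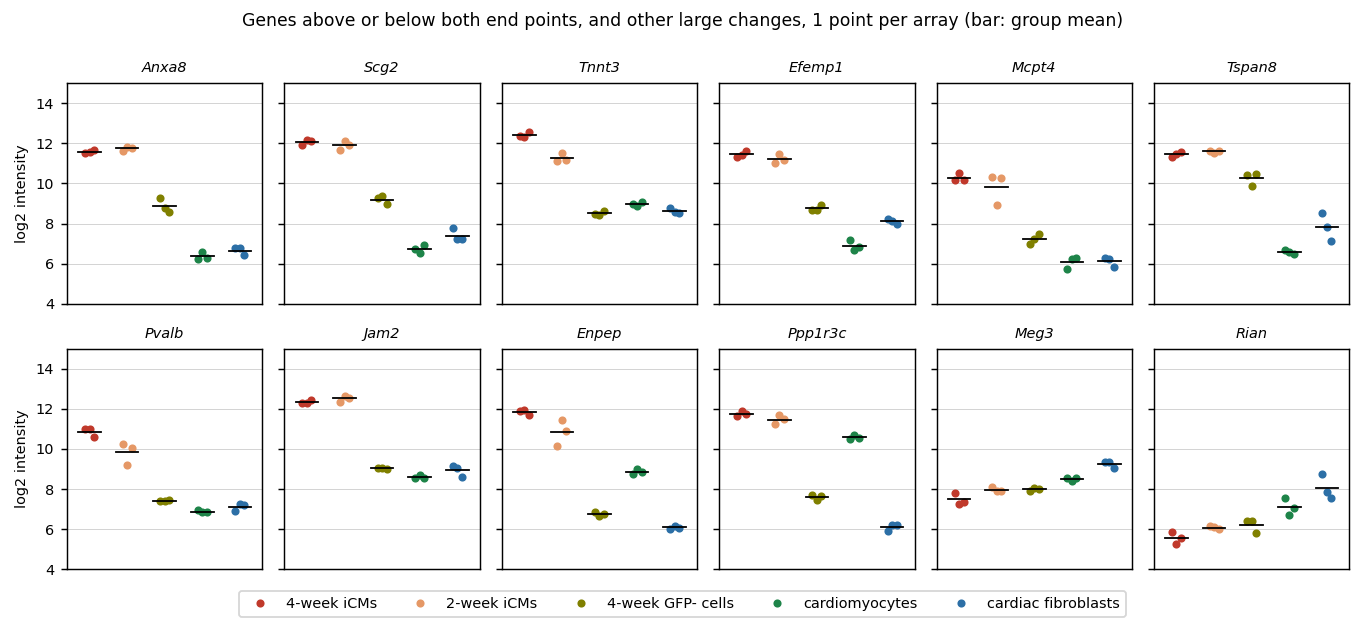
Panels as above for the 8 genes furthest above both end points and for Enpep, Ppp1r3c, Meg3 and Rian, with log2 intensity on the vertical axis and a bar at each group mean. For Anxa8, Scg2, Tnnt3, Mcpt4, Pvalb and Jam2 the points of 4-week and 2-week iCMs stand above those of the other groups.

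The 4-week iCMs were set against 2-week iCMs to find what had changed with time. In limma 855 genes were higher (4.29%) and 1442 lower (7.24%) at 4 weeks, and after quantile normalization of the same arrays the split was 1466 higher and 1466 lower. The count of higher genes was 389 without replicate 2 of the 4-week iCMs, 565 without replicate 3 of them and 560 without replicate 3 of the 2-week iCMs. Few changes were large: 39 genes were higher (0.196%) and 62 lower (0.311%) by at least 2-fold. Pln read 10.61, 10.72 and 10.20 log2 at 4 weeks against 7.70, 9.27 and 8.38 at 2 weeks (4.17-fold, adjusted p = 3.45e-05), with no overlap of arrays. Ppargc1a rose 3.23-fold, Ppp1r3a 4.16-fold, Nebl 5.09-fold and Vsnl1, a calcium sensor of nerve and heart, 4.68-fold. Heart muscle lists moved unevenly. Thin filament genes were higher in 7 of 16 and lower in 0, calcium handling genes of the reticulum higher in 6 of 16 and lower in 1, and thick filament genes higher in 5 of 20 and lower in 1. Z-disc genes were higher in 2 of 21 and lower in 1, and junction genes higher in 0 of 14 and lower in 1.

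Genes lower at 4 than at 2 weeks included many of mitosis, of macrophages and of fibroblast identity. Mitosis genes were lower at 4 weeks in 15 of 24 and higher in 0, and genes of fibroblast identity lower in 10 of 18. Most DNA replication genes gave no call, with 5 of 25 lower and 0 higher, and of 17 cell cycle inhibitors and p53 targets 3 were lower and 2 higher. Of the macrophage genes 12 of 24 were lower, and the list's array means were 9.05 to 9.18 log2 at 4 weeks against 9.35 to 9.74 at 2 weeks. Lox fell 3.28-fold, with 7.78, 7.97 and 7.62 at 4 weeks against 9.06, 9.94 and 9.51 at 2 weeks. The myeloid genes Clec4e, Ifitm6 and Clec5a were at least 4.02-fold, at least 2.44-fold and at least 2.58-fold lower, and Sla, an adaptor of blood cells, fell 2.85-fold. Nppb fell by 1.03 ± 0.16 log2.

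Against neonatal cardiomyocytes, 3781 genes were higher (19%) and 3208 lower (16.1%) in 4-week iCMs. Genes of oxidative metabolism were mostly lower than in cardiomyocytes: 18 of 20 fatty acid oxidation genes (median -1.33 log2) and 24 of 26 respiratory genes (median -0.92) were lower and 0 in either list higher. Cox8b was 26.6-fold lower, with 8.62, 8.56 and 7.82 in iCMs against 13.03, 13.14 and 13.01 in cardiomyocytes. Heart muscle lists were lower in part as well. Thin filament genes were lower in 9 of 16 and higher in 2, and thick filament genes in 11 and 2 of 20. Z-disc genes were lower in 12 of 21 and higher in 4, and calcium handling genes in 8 and 2 of 16. Junction genes were lower in 7 of 14 and higher in 4, and potassium channel genes in 12 and 1 of 15. Atrial-enriched genes were lower in 6 of 10 and higher in 1 (median -1.02 log2), and ventricular-enriched genes lower in 6 of 7 and higher in 0 (median -3.02). Myl2 was 100-fold lower and Tnni1 14.5-fold. Cd36, the fatty acid transporter, was 14.8-fold lower and myoglobin 11.3-fold. Endothelial markers were lower in 14 of 18, with list means of 7.24 to 7.36 in iCM arrays against 8.27 to 8.29 in cardiomyocyte arrays. Macrophage genes were higher in iCMs in 23 of 24, among them Lyz2 (31.5-fold) and Ms4a7 (at least 16.9-fold), beside list means of 9.05 to 9.18 against 6.64 to 6.82.

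Against GFP- cells of the same 4 weeks, 3421 genes were higher (17.2%) and 3395 lower (17.1%). Enpep, which cleaves angiotensin II, read 11.88, 11.96 and 11.71 log2 in iCMs against 6.86, 6.66 and 6.78 in GFP- cells (33.9-fold), and 6.03, 6.18 and 6.07 in fibroblasts. Myh6, Ttn and Casq2 were 27.9-fold, 25.1-fold and 23.7-fold higher than in GFP- cells. Of 19 collagen chains 5 were higher and 2 lower than in GFP- cells, with a median of -0.01 log2. Col3a1 averaged 8.10 ± 0.19 in iCMs, 8.48 ± 0.07 in GFP- cells and 10.60 ± 0.09 in fibroblasts. Of 18 genes of fibroblast identity and activation 4 were higher and 6 lower than in GFP- cells (median -0.10). Their array means were 8.48 to 8.55 in iCMs, 8.575 to 8.80 in GFP- cells and 9.54 to 9.77 in fibroblasts. Of 24 proteoglycans and matrix glycoproteins 3 were higher and 13 lower than in GFP- cells (median -0.42). For 20 matrix proteases and inhibitors the counts were 3 higher and 12 lower (median -0.62). Macrophage genes were lower, with 24 of 24 lower in iCMs (median -2.81), and the largest falls against GFP- cells were in Tlr13, Tlr7, Tlr8, Il7r, Stap1 and Cd200r1, all genes of immune cells. Mitosis genes were lower than in GFP- cells in 23 of 24 (median -1.19).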

How the data were processed

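RNA from 18 cell samples was measured on Affymetrix mouse Gene 1.0 ST arrays after isolation with the PicoPure kit and labelling with a MessageAmp II-biotin kit, per the labels. The authors deposited log2 intensities per probe set, made with RMA per the submitters' processing notes, whose version is not given in the sources used here. RMA corrects background and makes arrays share one distribution of values, which can hide a change common to most genes. Of 28682 probe sets, 21755 named 1 gene, and those naming several (1592) or none (5335) were left out. Each of the 997 genes with several probe sets was read from the brightest of them on average over the arrays, which left 19912 genes.

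In limma 3.58.1 (R 4.3.3), all 18 arrays entered a model with group as its only term (12 residual and 6.96 prior degrees of freedom), and p-values, all two-sided, were adjusted by Benjamini-Hochberg over all genes. Calls needed an adjusted p under 0.05. The script was tested on simulated data. Errors of means are SDs over 3 arrays, and errors of differences are limma's SEs. The design text calls the arrays biological replicates, but nothing in the labels names separate cultures or animals, and the p-values then cover only array-to-array spread, which may be technical.

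The comparison, its 44 gene lists (737 genes, 693 measured, 44 not analysed here) and the tests were chosen with earlier results of these data known, and lists are described by counts and medians without a test of their own. Named genes are the 15 largest rises and falls, up to 6 called members per list with the largest differences, members outside the test, the largest differences from the other groups, the genes furthest beyond both end points and anchor genes. Hairpins and the Dlk1-Dio3 region were chosen after values were seen. Ccnb1, whose promoter was planned, was not analysed here, and Ccnb2 took its place. Promoters and microRNAs are from RefSeq tables on GRCm38.p6 and were matched by symbol, with 15600 of 19912 genes having a promoter. Alternatives were quantile and cyclic loess normalization, array weights, an intensity trend, the groups compared alone, a stricter threshold, a filter on low genes, all probe sets or their median, a replicate block and leaving out each array.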

Additional observations from a re-analysis of the deposited data

Results flagged for a closer look

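Among the 15 largest rises and 15 largest falls against fibroblasts, 15 genes also differed between the 4-week and the 2-week iCMs by limma's test of that difference (adjusted p under 0.05), which drew attention to them. Higher at 4 weeks than at 2 weeks were Enpep by 1.02, Myh6 by 1.35, Pgam2 by 0.75 and Ryr2 by 0.42 log2. Myh6 read 12.09, 12.02 and 11.89 log2 at 4 weeks against 9.93, 11.29 and 10.73 at 2 weeks, and Enpep 11.88, 11.96 and 11.71 against 10.13, 11.44 and 10.90. The 2-week arrays of both genes were more spread than the 4-week arrays, and the groups did not overlap.

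Lower at 4 weeks were the matrix genes Dpt (-0.89) and Postn (-1.25) and the immune genes Clec4e (-2.20), Ifitm6 (-1.84), Clec5a (-1.59), Ccl12 (-1.28) and Cd52 (-1.28). Postn read 6.99, 7.43 and 6.61 at 4 weeks against 7.51, 8.97 and 8.29 at 2 weeks. Rasgrp3 (-0.42), an activator of Ras, Hpgd (-0.58), which breaks down prostaglandins, Emb (-1.32), a membrane glycoprotein, and Hsd11b1 (-0.61), which reactivates glucocorticoids, were lower as well. The means of Clec4e, Ifitm6, Clec5a and Dpt at 4 weeks were not above background, and against that level they were at least 4.02-fold, at least 2.44-fold, at least 2.58-fold and at least 1.36-fold lower. The immune genes moved beside the macrophage list, whose array means were 9.05 to 9.18 log2 at 4 weeks and 9.35 to 9.74 at 2 weeks, and its part in them was not tested.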

How the results depend on the processing

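None of the 244 named genes reversed against fibroblasts in any of the 16 alternatives run for each, and of the 238 called 228 kept the call in all of them. Those that lost it in at least 1 were Cacna2d1, Fosb, Gap43, Itgax, Map2, Nefm, Pdia6, Peg3, Pparg and Sdf2l1, and Gja5, Pecam1 and Vim gained one. Against fibroblasts, array weights called 4417 genes higher (2852 in the report), and leaving out 1 array gave 2342 to 2663 higher and 2656 to 2783 lower. Against 2-week iCMs the higher count (855) was 1466 with quantile normalization, 2653 with array weights, 487 with only these groups fitted and 352 at an adjusted p under 0.01, and the lower count (1442) was 3332 with array weights and 732 at the stricter threshold. Leaving out 1 array there gave 389 to 789 higher and 861 to 1354 lower, with 389 and 900 without replicate 2 of the 4-week iCMs, 565 higher without their replicate 3, and 560 and 861 without replicate 3 of the 2-week iCMs. The cause of these moves was not tested. With a replicate block 2911 genes were higher and 3080 lower against fibroblasts, and 920 and 1500 against 2-week iCMs. Deviations of same-numbered arrays from their group means correlated at -0.006, -0.064 and 0.014 with fibroblasts, and those of unlike number at -0.053 to 0.073. With 2-week iCMs the same-numbered values were 0.454, 0.345 and 0.084, and those of unlike number ran from -0.479 to 0.294. There the same-numbered value was the highest for each 4-week array. The reported model took no pairs in either comparison, and the origin of these correlations was not tested. Of 88 list counts against fibroblasts 18 moved by over 1.5 times under some alternative, none of them above 5 in the report. Leaving out 1 array lowered the imprinted genes called higher to 3 (5 in the report) and the other leukocyte genes called lower to 0 (1) for each of the 6 arrays, and the unfolded protein genes called lower to 1 (3) for all but replicate 2 of the iCMs. It lowered counts of 2 lower genes to 1 for other cardiac regulators (replicate 1 of iCMs or fibroblasts), calcium handling (replicate 3 of iCMs) and smooth muscle (replicates 1 or 2 of fibroblasts), and to 0 or 1 for neuronal genes (replicate 3 of iCMs, 1 or 2 of fibroblasts). It raised counts of 0 to 1 for progenitor genes higher (replicates 1 or 3 of fibroblasts) and MHC class II genes lower (replicate 3 of iCMs). The remaining 9 moved only under settings that kept all arrays, namely higher counts of fibroblast identity, endothelial, other leukocyte, interferon, replication, unfolded protein and Schwann cell genes, and lower counts of pluripotency and muscle glycolysis genes. Where both means lie under the background level, a difference has no interpretable size.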
